A study of Mus musculus with 12 samples.

Results

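Calca, the gene that encodes both the sensory neuropeptide CGRP and the hormone calcitonin, was read together with the genes of the CGRP receptor system in single cells from mouse joints: Calcrl, Ramp1, Ramp2 and Ramp3. The 5 genes were picked by their symbols from the 32285 genes of the deposited matrices. The highest Calca levels were in group 2 innate lymphoid cells (ILC2), above all in the class named ILC2-3, and they were higher in mice with arthritis than in healthy mice. Fibroblasts held little Calca and a different RAMP gene from the ILCs.

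CGRP acts through a receptor of 2 proteins: CALCRL, a G protein-coupled receptor that raises cAMP, and RAMP1, a single-pass partner that the receptor needs to reach the membrane and to bind CGRP with high affinity. With RAMP2 or RAMP3 in place of RAMP1, CALCRL is a receptor for adrenomedullin, the product of Adm, while RAMP1 and RAMP3 also pair with the calcitonin receptor to bind amylin. CGRP is best known from pain-sensing nerve fibres, which innervate the synovium, where it widens vessels. In ILC2 of the mouse lung and gut it acts on the cells and is also made by some of them. Splicing of Calca gives either peptide, and the deposited counts are summed per gene, so they do not separate CGRP from calcitonin transcripts.

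Cells came from the synovium of ankle and wrist joints of 8 to 10 week old R5 x R26tdTomato mice, and every group, healthy controls included, carried the genotype Il5 wt/Cre; R26 tdTom/tdTom. In this cross, Cre made from the Il5 locus leaves tdTomato on in a cell that has expressed Il5 at any time and in its progeny. The groups were mice with serum transfer arthritis (STA) treated with an agent labelled Il23mc, mice with STA alone and untreated healthy mice in experiment 1, and STA labelled mild, STA labelled severe and healthy in experiment 2. ILCs were sorted as viable CD45+ tdTomato+ cells without CD3, T cell receptor, CD11b or GR-1, and fibroblasts as viable CD45- GR-1- cells. A hashtag (an antibody-borne barcode) stands for 1 mouse in the 3 ILC wells of experiment 1, with 3 mice per condition. In the other 3 wells it stands for a pool of an unknown number of mice per condition. In experiment 1 each ILC condition filled a well of its own, so condition and well cannot be told apart there. The labels speak of 4 animals pooled in each well, and each well holds 3 hashtags.

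The 6 wells held 2094 to 7596 barcodes and 11416646 to 75699013 UMIs (unique molecules counted) each. The authors' table lists 8042 kept cells with a class each, of which 8039 matched a barcode. In the ILC wells the UMI count of every matched cell equalled that in the authors' table. In the fibroblast wells it did so for 201 of 2431 cells in experiment 1 and 118 of 1117 in experiment 2. The sums below use the counts of the matrices, and the source of the difference was not tested. The authors' table holds no cell of the STA ILC well or of the STA hashtags among the ILCs of experiment 2. The classes of those cells were therefore passed on from the annotated cells. Checked on the annotated ILC wells, this step again left out 14.9 to 82.4% of the cells that the authors had left out. Of the barcode sequences, 74 occurred in more than 1 well and 26624 in 1. The sums used below came from 3984 ILC2, 2454 ILC3, 561 ILC precursors, 3325 fibroblasts, and 223 osteoblasts and chondrocytes. ILC2 markers (such as Gata3, Il1rl1 and Il5) summed to 5408 to 8674 CPM (counts per 1000000 UMIs) in ILC2, and fibroblast markers (such as Col1a1 and Pdgfra) to 27092 to 45038 CPM in fibroblasts. The ILC3 class is less clear by its markers: outside the mice given Il23mc, the ILC3 list (such as Il23r, Il17a and Il22) summed to 553 to 726 CPM in ILC3 against 613 to 760 CPM in ILC2. In mice given Il23mc it reached 2410 to 8065 CPM in ILC3.

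In the mm10 build and GENCODE M21, Calca (ENSMUSG00000030669) lies on chromosome 7 from 114631478 to 114636357 on the minus strand. It has 7 annotated transcripts, of which 6 are protein-coding, with 6 distinct 3' ends among the coding ones. Calcrl (ENSMUSG00000059588) lies on chromosome 2 from 84330626 to 84425411 on the minus strand. Ramp1 (ENSMUSG00000034353) lies on chromosome 1 from 91179822 to 91225196 on the plus strand. Ramp2 (ENSMUSG00000001240, 101246028 to 101259546) and Ramp3 (ENSMUSG00000041046, 6658521 to 6677475) are both on the plus strand of chromosome 11, far apart. All 5 are protein-coding.

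The 250 bases before the start of Calca and of Ramp3 are shown because these were the members highest in the same class, ILC2-3 (RefSeq sequences, build GRCm38.p6, 5' to 3' on the gene's strand; 4 of the 5 members matched that table). Capitals mark the matches to any of 6 motifs searched on both strands. The Calca window is chr7:114636358-114636607 and the Ramp3 window chr11:6658283-6658532. The starts are those of RefSeq and can differ from the GENCODE positions above. The Ramp3 window thus ends inside the GENCODE gene, which begins at 6658521, and the Calcrl window also reaches into its GENCODE gene.

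Calca: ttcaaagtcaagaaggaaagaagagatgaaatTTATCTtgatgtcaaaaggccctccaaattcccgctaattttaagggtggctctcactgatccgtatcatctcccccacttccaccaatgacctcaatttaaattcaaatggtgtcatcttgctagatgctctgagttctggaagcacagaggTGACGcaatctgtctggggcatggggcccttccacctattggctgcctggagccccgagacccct

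Ramp3: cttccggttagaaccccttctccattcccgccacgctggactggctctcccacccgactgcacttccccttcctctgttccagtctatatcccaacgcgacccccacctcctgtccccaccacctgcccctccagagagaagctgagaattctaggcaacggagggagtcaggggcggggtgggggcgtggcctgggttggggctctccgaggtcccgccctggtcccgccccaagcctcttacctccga

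The Calca window held 1 match to TGACG, the core of the cAMP response element, 65 bases before the start, and 1 match to the GATA motif AGATAA, read as TTATCT on the strand shown, 218 bases before it. Of 32851 promoters of the same length, 17.8% held TGACG and 9.99% AGATAA. The full element TGACGTCA (1.55% of promoters, each of which also holds TGACG), AP-1 as TGAGTCA or TGACTCA (4.46%), TATAAA (12.4%) and the E-box CACGTG (6.02%) had no match in it. The Ramp3, Calcrl and Ramp1 windows held none of the 6 motifs. A match is a run of letters and not a shown binding site.

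Calca was concentrated in 1 class of ILC2. Over all hashtags its summed level was 994 CPM in ILC2-3, 207 CPM in ILC3-2, 179 CPM in ILC2-2, 93.0 CPM in ILC2-1, 79.9 CPM in ILC precursors and 37.6 CPM in ILC3-1. Over the 12 hashtags ILC2-3 averaged 1019.7 ± 564 CPM (SD), from 312 to 2334 CPM. Each neighbour in this order overlapped the next in its range over hashtags. Among the classes of the fibroblast wells the highest was 5.38 CPM in Cd200+ cells, on 6 UMIs in all, followed by 2.83 CPM in Mmp3+ fibroblasts. Lining fibroblasts and chondrocytes had no Calca UMI, which allows up to 1.33 and 3.59 CPM (95% exact Poisson limits, which cover counting error only). The classes were drawn from the same cells' expression, so these levels describe the classes and were not tested.

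Within ILC2, few cells held most of the Calca. ILC2-3 made up 12.7 to 38.0% of the ILC2 of a hashtag and held 54.1 to 79.6% of its Calca UMIs. The 5% of ILC2 with the most Calca held 50.5 to 91.2% of the UMIs of their hashtag, and the single highest cell had 29 to 115 of them. A Calca UMI was found in 28.5% of ILC2 (95% exact binomial interval 27.1 to 29.9%), in 16.1% of ILC3 and in 1.83% of fibroblasts, at median depths of 4949, 5324 and 14619 UMIs per cell. Thinned to 1500 UMIs per cell, with no cell left out, these shares were 18.0%, 8.19% and 0.271%. The fibroblasts were at the lowest share although their cells were the deepest. They were run in wells of their own, so their share does not measure free Calca RNA in the ILC wells, where the lowest thinned share of a class was 3.76%, in ILC3-1 (9.92% before thinning). In ILC2-3 alone the share was 56.4%, in ILC2-2 23.5% and in ILC2-1 12.4% (39.6%, 13.5% and 6.81% after thinning). Ramp3 was found in 93.7% of ILC2-3, 67.7% of ILC2-2 and 31.4% of ILC2-1, and in 0.0902% of fibroblasts.

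**Figure D1:**
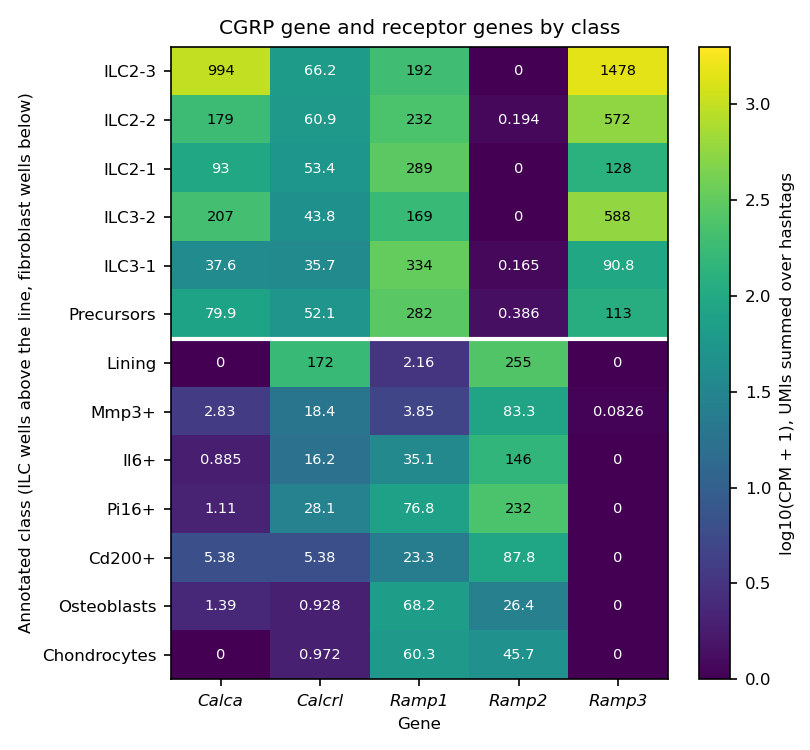
Level of each of the 5 genes (columns) in the 13 annotated classes (rows, ILC wells above the white line and fibroblast wells below it), as CPM from UMIs summed over hashtags and coloured on a log10 scale. Calca and Ramp3 are highest in ILC2-3, at 994 and 1478 CPM, Ramp2 is near 0 in every ILC class, and Calcrl is highest in lining fibroblasts, at 172 CPM.

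Calcrl, the shared receptor subunit, was present in both lineages. Its highest level was 172 CPM in lining fibroblasts, and the 2 hashtags with at least 20 such cells, at 161 and 183 CPM, lay above every hashtag of ILC2-3, the next class, at 37.6 to 86.0 CPM. ILC classes followed one another closely at 35.7 to 66.2 CPM with ranges that overlapped between neighbours. Pi16+ fibroblasts had 28.1 CPM, Mmp3+ fibroblasts 18.4 CPM and Il6+ fibroblasts 16.2 CPM. Cd200+ cells, chondrocytes and osteoblasts were at 0.928 to 5.38 CPM, on 9 UMIs in all 3 classes together. A Calcrl UMI was seen in 69.0% of lining fibroblasts, and in 20.3% after thinning.

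The RAMP genes split the lineages. Ramp3 followed Calca's order in the ILCs, with 1478 CPM in ILC2-3, 588 CPM in ILC3-2, 572 CPM in ILC2-2, 128 CPM in ILC2-1, 113 CPM in precursors and 90.8 CPM in ILC3-1. ILC2-2 and ILC2-1 did not overlap in their hashtag ranges. In 3325 fibroblasts Ramp3 had 3 UMIs, all in Mmp3+ cells. Ramp2, the adrenomedullin partner known best from blood and lymph vessels, was the reverse: 255 CPM in lining fibroblasts, 232 CPM in Pi16+, 146 CPM in Il6+, 87.8 CPM in Cd200+ and 83.3 CPM in Mmp3+ cells, and 2 UMIs in all 3984 ILC2. Ramp1, the CGRP partner, was found on both sides, at 169 to 334 CPM in the ILC classes, 76.8 CPM in Pi16+ fibroblasts, 68.2 CPM in osteoblasts and 60.3 CPM in chondrocytes, against 3.85 CPM in Mmp3+ and 2.16 CPM in lining fibroblasts.

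As a share of all RAMP UMIs, Ramp3 made up 88.5% in ILC2-3, 77.6% in ILC3-2 and 71.2% in ILC2-2, while Ramp1 made up the larger share in ILC2-1, precursors and ILC3-1, where Ramp3 held 30.7%, 28.5% and 21.4%. In lining fibroblasts 99.2% of the RAMP UMIs were Ramp2, in Mmp3+ cells 95.5%, in Il6+ cells 80.6%, in Cd200+ cells 79.0% and in Pi16+ cells 75.1%. Osteoblasts and chondrocytes held mostly Ramp1, at 72.1% and 56.9%. Counts of 3' tags are close to counts of molecules, but capture can differ between genes, so the shares rank transcripts only roughly.

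**Figure D2:**
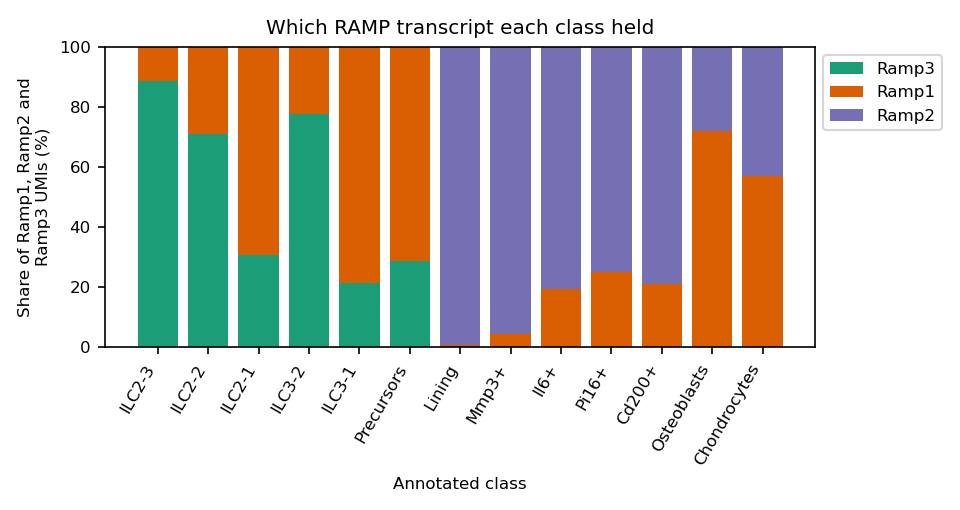
Share of the Ramp1, Ramp2 and Ramp3 UMIs (y axis, percent) in each annotated class (x axis), summed over hashtags. Ramp3 holds 88.5% in ILC2-3 and Ramp2 holds 99.2% in lining fibroblasts, while Ramp1 is the larger part in ILC2-1, ILC3-1, precursors, osteoblasts and chondrocytes.

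Cells with both receptor parts were counted. Of the 944 ILC2 with a Calcrl UMI, 57.5% also had Ramp1, 69.7% had Ramp3 and 33.2% had Calca. Among the other ILC2 these shares were 55.1%, 62.8% and 27.1%, at a lower median depth (5611 UMIs in the Calcrl cells, 4781 in the others). Of the 647 fibroblasts with a Calcrl UMI, 74.5% had Ramp2 and 14.7% Ramp1, against 62.4% and 15.2% of the other fibroblasts, at median depths of 17320 and 14027 UMIs. The Calcrl cells were the deeper ones in both lineages, and the part of depth in these shares was not tested. Only pairs with Calcrl were counted, so these shares do not say how many ILC2 held ligand, receptor and RAMP transcripts together.

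ILC2 and fibroblasts came from separate sorts, so their difference can be tested, although cell type and well go together. The 12 ILC2 hashtags and 6 fibroblast hashtags were fitted with experiment and condition as terms, and 78.9% of all 10483 genes tested were called in one direction or the other (edgeR's quasi-likelihood test, Benjamini-Hochberg adjusted p under 0.05), so that a call on its own says little. All 5 members passed. Calca was 7.87 log2 units higher in ILC2 (SE 0.43, adjusted p = 7.00e-13), Ramp1 3.39 higher (SE 0.42, adjusted p = 2.47e-07) and Calcrl 1.09 higher (SE 0.17, adjusted p = 9.03e-06). For Ramp3 and Ramp2 one side is near 0, and fitted folds are no guide. Ramp3 had 16072 UMIs in ILC2 and 3 in fibroblasts, a ratio of levels of 13498 (95% counting interval 4618 to 65461). Ramp2 had 2 UMIs in ILC2 and 6452 in fibroblasts, whose level was 1280.4 times that of ILC2 (354 to 10575). In healthy hashtags alone one side had no UMI, and 3 counts over the group were taken as its floor. Against that floor Ramp3 was 1327-fold higher in ILC2 and Ramp2 556-fold lower. The lower limits of the 95% counting intervals were 1079-fold for Ramp3 and 452-fold for Ramp2.

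Within ILC2 of experiment 1, Calca was the member that changed with arthritis. It stood at 382, 1018 and 992 CPM in the 3 mice with STA + Il23mc, at 468, 532 and 399 CPM in the 3 mice with STA and at 123, 214 and 100.4 CPM in the 3 healthy mice. All 6 arthritic mice lay above all 3 healthy mice, while mouse 1 of the Il23mc group, at 382 CPM, lay below every STA mouse. Genes higher in every mouse made up 7.97% of those with a value for STA + Il23mc against healthy and 8.63% for STA against healthy. The means were 797 ± 359.8 CPM with STA + Il23mc, 466 ± 66.8 CPM with STA and 146 ± 59.9 CPM in healthy mice (SD, n = 3 each).

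By edgeR's quasi-likelihood test over 7226 genes, Calca rose by 2.55 log2 units with STA + Il23mc against healthy (SE 0.35, adjusted p = 0.000294), where 7.65% of all genes were called (4.73% higher and 2.92% lower). With STA against healthy it rose by 1.71 (SE 0.34, adjusted p = 0.0120), where 2.71% of genes were called (1.59% higher and 1.12% lower). STA + Il23mc against STA differed by 0.84 (SE 0.33, adjusted p = 0.315), which did not pass; 1.61% of genes were called there. The STA call was lost without healthy mouse 1 (1.61, adjusted p = 0.0571), without healthy mouse 3 (1.49, adjusted p = 0.0884), without STA mouse 2 (1.59, adjusted p = 0.0606) and when all lymphoid cells were summed in place of ILC2 (1.51, adjusted p = 0.305). The rise with STA + Il23mc passed without healthy mouse 1, without healthy mouse 3 and over all lymphoid cells (2.00, adjusted p = 0.0409). The difference between the arthritic groups passed without mouse 1 of the Il23mc group (1.19, adjusted p = 0.0106). A single rule for hashtags and classes in all 3 wells gave 1.18 for STA (adjusted p = 0.00421) and 2.13 for STA + Il23mc (adjusted p = 7.68e-06) against healthy, and 0.95 between the arthritic groups (adjusted p = 0.0201).

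Calca was also higher within ILC2-2 and ILC2-3 taken alone. In ILC2-3 it was 1429, 2334 and 1656 CPM with STA + Il23mc, 897, 964 and 890.0 CPM with STA and 312, 511 and 466 CPM in healthy mice, and no 2 of the 3 groups overlapped. Of the genes with a value in ILC2-3, 9.79% were higher in every mouse with STA + Il23mc than in every healthy mouse, 8.24% with STA against healthy and 6.98% with STA + Il23mc against STA (6.37% for the last over all ILC2). The rise in ILC2-3 was 2.16 log2 units with STA + Il23mc against healthy (SE 0.21, adjusted p = 3.16e-06), 1.10 with STA against healthy (SE 0.20, adjusted p = 0.00454) and 1.06 with STA + Il23mc against STA (SE 0.19, adjusted p = 0.00565). In ILC2-2, where the levels were lower, Calca rose by 2.61 (adjusted p = 9.14e-05) and 1.59 (adjusted p = 0.0148) against healthy mice with STA + Il23mc and with STA. In ILC2-1 it was 21.02, 385 and 475 CPM with STA + Il23mc, 239, 31.9 and 34.7 CPM with STA and 54.0, 23.3 and 10.1 CPM in healthy mice, with 1 mouse of each arthritic group apart from its group. There the change with STA + Il23mc was 3.48 (SE 0.93, adjusted p = 0.0485) and with STA 2.15 (SE 1.02, adjusted p = 0.650). These fits by class were chosen after seeing the data. The ILC2 classes of the STA mice were passed on, while those of the healthy and Il23mc mice were the authors'. How well the passing on kept ILC2-1, ILC2-2 and ILC2-3 apart was not checked.

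Cells with a UMI of Cd3d or Cd3e, genes of the T cell receptor complex, occurred in the ILC wells despite the gate against CD3, most of all in mice given Il23mc. T cell markers summed to 591 to 2603 CPM in ILC2 with STA + Il23mc, 1037 to 1111 CPM with STA and 777 to 969.8 CPM in healthy mice. Without the Cd3d or Cd3e cells, Calca in ILC2 was 617, 1099.7 and 1042 CPM with STA + Il23mc, 507, 539 and 403 CPM with STA and 124, 213 and 102 CPM in healthy mice, and no 2 groups overlapped. In that selection 8.07% of genes were higher in every mouse with STA + Il23mc against healthy, 8.1% with STA against healthy and 7.12% with STA + Il23mc against STA. The differences were then 2.78 (adjusted p = 1.48e-06) and 1.77 (adjusted p = 0.000330) against healthy mice, and 1.01 (SE 0.24, adjusted p = 0.0290) between STA + Il23mc and STA.

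Other cells that can hold or make the peptide were looked for by their markers. The neuron list (Prph, Tubb3, Nefl, Scn9a and Tac1) summed to 0 to 0.693 CPM in every ILC2 hashtag. Mast cell and basophil markers summed to 218 to 321 CPM with STA + Il23mc, 302 to 319.8 CPM with STA and 288 to 384 CPM in healthy mice. Without the cells that held Cpa3, Mcpt4, Mcpt8, Tpsb2, Cma1 or Fcer1a, Calca differed by 1.70 with STA against healthy (edgeR adjusted p = 0.0150). Kit and Hdc, also in the summed list, were not used to drop cells, so cells with these alone stayed in. Dendritic cell markers (Flt3, Zbtb46, H2-Aa and Cd74) moved with condition, at 368 to 627 CPM with STA + Il23mc, 234 to 606 CPM with STA and 32.7 to 59.5 CPM in healthy mice. Flt3 had no UMI in the ILC2 of any of these mice except STA mouse 2, so the sums rest on the other genes of the list. Whether they mark dendritic cells among the ILC2 was not tested. Myeloid markers were at 15.2 to 34.4 CPM with STA + Il23mc, 3.74 to 6.94 CPM with STA and 0 to 0.492 CPM in healthy mice. ILC3 markers in ILC2 were at 902 to 3365 CPM with STA + Il23mc, 652 to 759.6 CPM with STA and 634 to 759.4 CPM in healthy mice. The part of the dendritic cell, myeloid and ILC3 lists in the Calca result was not tested.

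**Figure D3:**
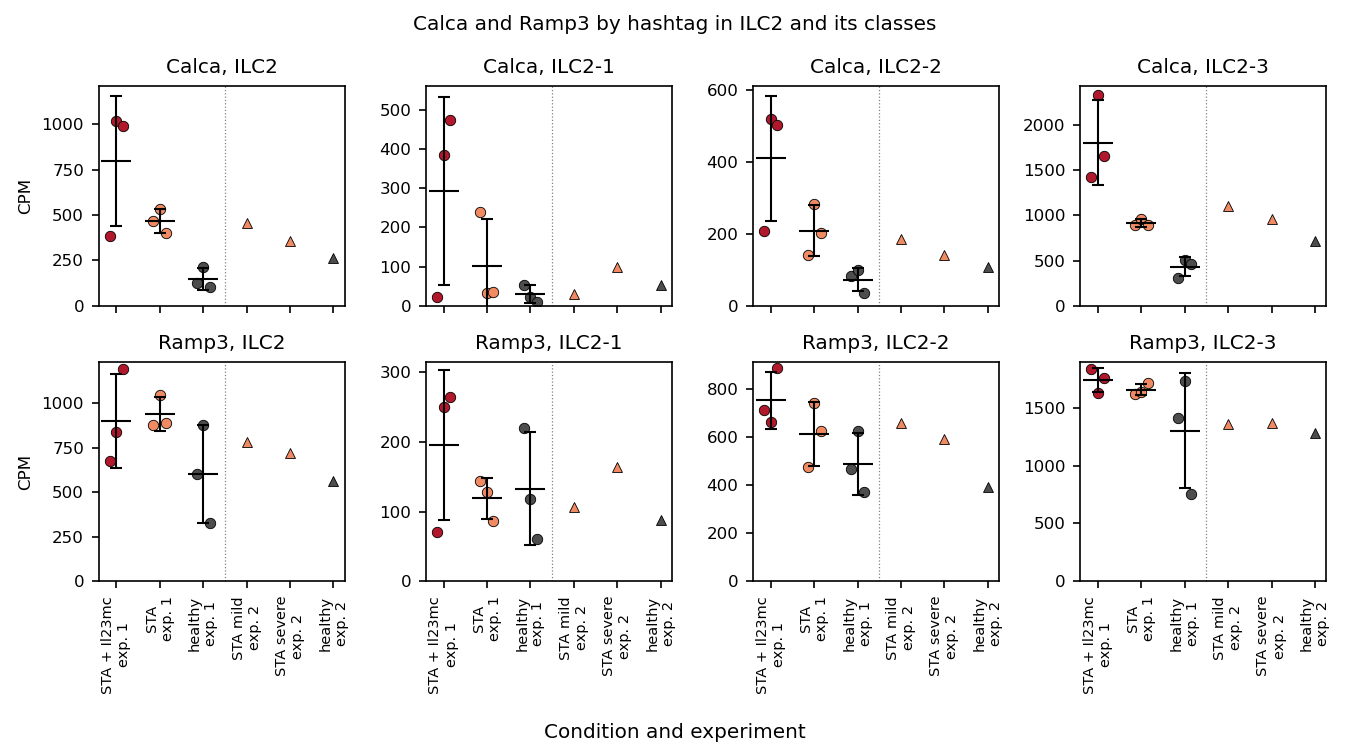
Calca (top row) and Ramp3 (bottom row) in ILC2 and in the classes ILC2-1, ILC2-2 and ILC2-3, as CPM on the y axis, with each circle 1 mouse of experiment 1, each triangle 1 pooled hashtag of experiment 2, and bars the mean and SD of 3 mice. In ILC2-3 the Calca levels of the 3 groups of experiment 1 do not overlap, while those of Ramp3 do. Classes of the STA cells were passed on, and the others are the authors'.

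In ILC2 as a whole no receptor gene passed the test between conditions. Ramp3 was 673, 840.0 and 1189 CPM with STA + Il23mc, 875, 1048 and 888 CPM with STA and 600.0, 878 and 329 CPM in healthy mice, with healthy mouse 2 inside the arthritic range and healthy mouse 3 well under it. Its differences were 0.68 with STA + Il23mc against healthy (SE 0.29, adjusted p = 0.189), 0.69 with STA against healthy (SE 0.29, adjusted p = 0.258) and -0.01 between the arthritic groups. The first passed without Cd3d or Cd3e cells (0.95, adjusted p = 0.0147), without healthy mouse 2 (1.10, adjusted p = 0.0414) and in ILC2-2 alone (0.73, adjusted p = 0.0342). With no filter on low counts both comparisons with healthy mice passed (0.67, adjusted p = 0.000421, and 0.68, adjusted p = 0.000732), so the Ramp3 call depends on these choices. Ramp1 was 281, 149 and 72.9 CPM with STA + Il23mc, 154, 175 and 210.2 CPM with STA and 99.4, 171 and 148 CPM in healthy mice. The 3 groups overlapped, and the Il23mc mice spread most widely (0.32, SE 0.32, adjusted p = 0.642, against healthy mice).

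Calcrl was 30.1, 46.4 and 63.8 CPM with STA + Il23mc, 69.2, 43.7 and 48.6 CPM with STA and 71.7, 84.7 and 59.5 CPM in healthy mice. Its means were lower in both arthritic groups, with overlap, and neither difference passed (-0.52, SE 0.26, adjusted p = 0.282 with STA + Il23mc and -0.38, SE 0.25, adjusted p = 0.536 with STA). In ILC2-3, Ramp1 was 96.7, 75.4 and 61.5 CPM with STA + Il23mc, against 166, 182 and 182 CPM with STA. There it fell by 1.15 with STA + Il23mc against STA (edgeR adjusted p = 0.0303), which was not seen over all ILC2 (-0.09). The ILC2-3 class was passed on in the STA mice and was the authors' in the Il23mc mice. Ramp2 had 1 UMI in the 9 mice of experiment 1, in mouse 1 of the Il23mc group.

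Experiment 2 has 1 hashtag per condition, so its ILC2 values stand without a test of condition. Calca was 455 CPM with STA labelled mild, 357 CPM with STA labelled severe and 263 CPM in the healthy pool, the same order of arthritic above healthy as in experiment 1, with ratios of 1.73 (95% counting interval 1.60 to 1.88) and 1.36 (1.26 to 1.47) that cover counting error only. The healthy pool, at 263 CPM, was above all 3 healthy mice of experiment 1. Ramp3 was 781, 718 and 563 CPM in the same order, with ratios of 1.39 and 1.28. Ramp1 was 286, 344 and 267 CPM, and Calcrl 76.8, 49.7 and 65.1 CPM, with the severe pool lowest for Calcrl and highest for Ramp1. A fit of both experiments with an experiment term gave a Calca rise of 1.33 with STA (adjusted p = 0.00129).

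ILC2 and ILC3 of the same mice were set side by side as a description, since the authors' classes were drawn from these cells' expression. Calca in ILC3 was 50.2, 96.7 and 219 CPM with STA + Il23mc, 256, 134 and 390.2 CPM with STA and 43.4, 151 and 152 CPM in healthy mice. The ILC3 of the STA mice also held markers of other cells, with mast cell and basophil markers at 213 to 5877 CPM and dendritic cell markers at 924 to 6620 CPM, and were left out of what follows. Over the healthy and Il23mc mice of experiment 1, ILC2 exceeded ILC3 by 1.84 log2 units for Calca (SE 0.47), 1.04 for Calcrl (SE 0.28) and 1.00 for Ramp3 (SE 0.31), while Ramp1 differed by -0.09 (SE 0.21). In the healthy mice alone they were 0.35 for Calca, 0.42 for Calcrl, 0.20 for Ramp3 and 0.36 for Ramp1. In the Il23mc mice they were 3.14, 2.22, 1.89 and -0.50 for the same genes.

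The change with STA + Il23mc against healthy was tested for a difference between ILC2 and ILC3, with the mouse as a block, where 4.3% of 7645 genes were called. The ILC2 change minus the ILC3 change was 2.74 log2 units for Calca (SE 0.36, edgeR adjusted p = 0.000166) and 1.76 for Calcrl (SE 0.33, adjusted p = 0.00323). It was 1.70 for Ramp3 (SE 0.28, adjusted p = 0.00116) and -0.88 for Ramp1 (SE 0.31, adjusted p = 0.131). Mean Calcrl was lower with STA + Il23mc than in healthy mice in both classes: 46.8 against 72.0 CPM in ILC2 and 11.7 against 58.0 CPM in ILC3. Mean Ramp3 was 901 against 602 CPM in ILC2 and 364 against 546 CPM in ILC3. Without Il23mc mouse 2 the Calcrl difference was 1.57 (adjusted p = 0.0544) and did not pass. These calls went with the Cd3d or Cd3e cells. Of the 711 ILC3 of the Il23mc mice, 597 held such a UMI (410, 180 and 7 in mice 1, 2 and 3), and in those cells Calca was at 11.0, 28.6 and 0 CPM, Ramp3 at 92.7, 111 and 213 CPM and Ramp1 at 375, 402 and 152 CPM. Without them, the ILC3 of the Il23mc mice (52, 41 and 21 cells) held 570.3, 623 and 303 CPM of Calca, against 43.4, 153 and 157 CPM in healthy mice. The groups did not overlap, as for 11.7% of genes that were higher in every Il23mc mouse of that selection. The difference between ILC2 and ILC3 was then 0.70 for Calca (adjusted p = 0.585), 0.45 for Calcrl (adjusted p = 0.854) and 0.26 for Ramp3 (adjusted p = 0.836). Over all ILC3, dendritic cell markers were at 342 to 1668 CPM with STA + Il23mc and 180 to 370.4 CPM in healthy mice, and myeloid markers at 8.43 to 33.4 CPM with STA + Il23mc and 0 to 0.754 CPM in healthy mice. Their part in the ILC3 levels was not tested.

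**Figure D4:**
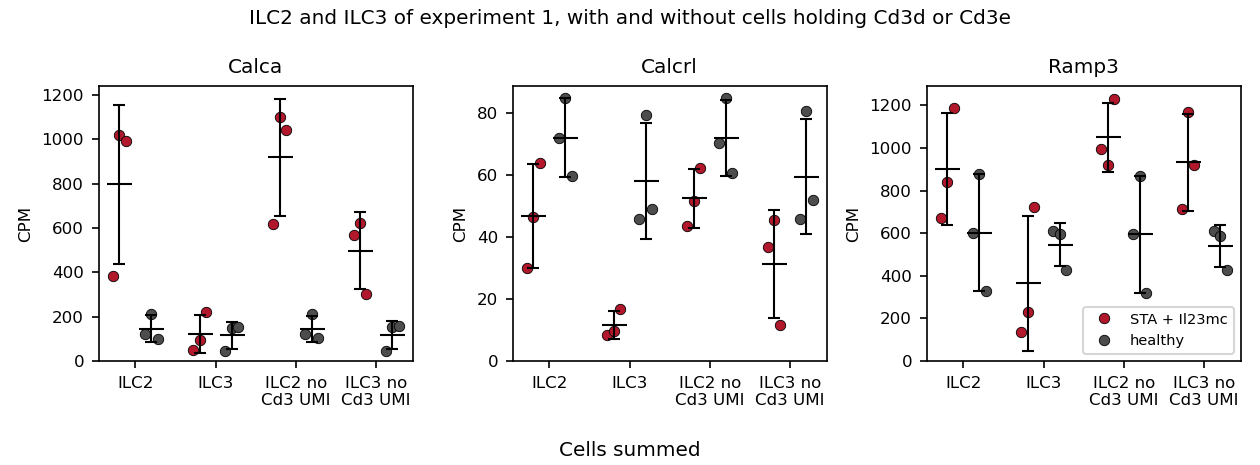
Calca, Calcrl and Ramp3 (panels, CPM on the y axis) in ILC2 and ILC3 of experiment 1, over all cells and without cells that held a Cd3d or Cd3e UMI, with circles for mice given STA + Il23mc (red) and healthy mice (grey), and bars for mean and SD of 3 mice. Calca in the ILC3 of Il23mc mice is 50.2 to 219 CPM over all cells and 303 to 623 CPM without the Cd3 cells.

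In fibroblasts, the CGRP partner Ramp1 was lower in arthritis. It was 9.73 CPM in the STA + Il23mc pool, 7.11, 11.7 and 21.9 CPM in the STA pools (experiment 1, mild and severe) and 53.7 and 69.0 CPM in the healthy pools of experiments 1 and 2. All 4 arthritic pools lay below both healthy ones. Over the 3 STA and 2 healthy pools with an experiment term, Ramp1 fell by 2.38 log2 units (SE 0.29, edgeR adjusted p = 0.00398), where 20.3% of 12200 genes were called (10.5% higher and 9.88% lower), and 20.3% were lower in every STA pool than in every healthy pool. Ramp2 was 118 CPM with STA + Il23mc, 92.9, 90.9 and 131 CPM with STA and 214 and 172 CPM in healthy pools, again without overlap. It fell by 0.87 (SE 0.19, adjusted p = 0.0218), a call lost without the STA pool of experiment 1 (-0.63, adjusted p = 0.133), without the healthy pool of experiment 1 (-0.63, adjusted p = 0.142) and without the experiment term (-0.90, adjusted p = 0.0621).

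Calcrl in fibroblasts was 21.9 CPM with STA + Il23mc, 23.2, 33.1 and 28.3 CPM with STA and 54.6 and 26.4 CPM in healthy pools, and the groups overlapped (-0.48, SE 0.31, adjusted p = 0.304). Without the healthy pool of experiment 2 it was -1.23 (adjusted p = 0.00988), and without the healthy or the STA pool of experiment 1 it was 0.21. The healthy pool of experiment 1, the one high in Calcrl, held 12.01% lining fibroblasts, against 2.24% in that of experiment 2 and 1.78 to 5.73% in the 4 arthritic pools. Within lining cells, of which the pools held 6 to 54 each, Calcrl was 167 CPM with STA + Il23mc, 161, 176 and 169 CPM with STA and 183 and 211 CPM in healthy pools. Calca and Ramp3 in fibroblasts rested on a few UMIs: Calca had 37 with STA + Il23mc, 55, 19 and 5 with STA and 7 and 0 in healthy pools, and 1 cell of the mild pool held 14 of its 19.

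The makeup of the fibroblast classes moved with condition. Mmp3+ cells, next to lining cells the class lowest in Ramp1, were 66.5% with STA + Il23mc, 69.5, 49.1 and 40.6% with STA and 2.45 and 10.8% in healthy pools. Pi16+ cells, the class highest in it, were 5.77% with STA + Il23mc, 8.48, 20.5 and 22.3% with STA and 50.2 and 47.0% in healthy pools. Within Pi16+ cells, Ramp1 was 48.1 CPM with STA + Il23mc, 40.1, 56.9 and 81.8 CPM with STA and 89.2 and 103 CPM in healthy pools, lower in every arthritic pool, and the STA difference was -0.77 (adjusted p = 0.177). Within Il6+ cells it was 35.1 CPM with STA + Il23mc, 21.7, 22.0 and 35.6 CPM with STA and 43.5 and 56.0 CPM in healthy pools (-1.02, adjusted p = 0.0583). Ramp2 differed by 0.20 in Pi16+, -0.037 in Il6+ and -0.14 in Mmp3+ cells (adjusted p = 0.795, 0.952 and 0.844). So the Ramp2 difference over all fibroblasts was not seen within these 3 classes, while that of Ramp1 kept its sign in all 3 and passed in none. Markers of endothelial cells, which are known to express Ramp2 and Calcrl, summed to 18.3 CPM with STA + Il23mc, 18.1 to 31.8 CPM with STA and 46.2 and 50.3 CPM in healthy pools. Without the fibroblasts that held Pecam1, Cdh5 or Egfl7, Ramp2 differed by -0.83 (edgeR adjusted p = 0.0215) and Ramp1 by -2.31 (adjusted p = 0.00378). Cells with other markers of the summed list alone, such as Kdr or Emcn, stayed in.

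The STA effect on Ramp1 differed between the 2 sorted lineages. In ILC2 the STA and healthy levels overlapped, and in fibroblasts the STA level was lower. The difference of the effects was 2.73 log2 units (SE 0.32, edgeR adjusted p = 0.000181), where 3.81% of 12139 genes were called. It ranged from 2.35 to 3.24 as each hashtag was left out, and it passed each time.

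**Figure D5:**
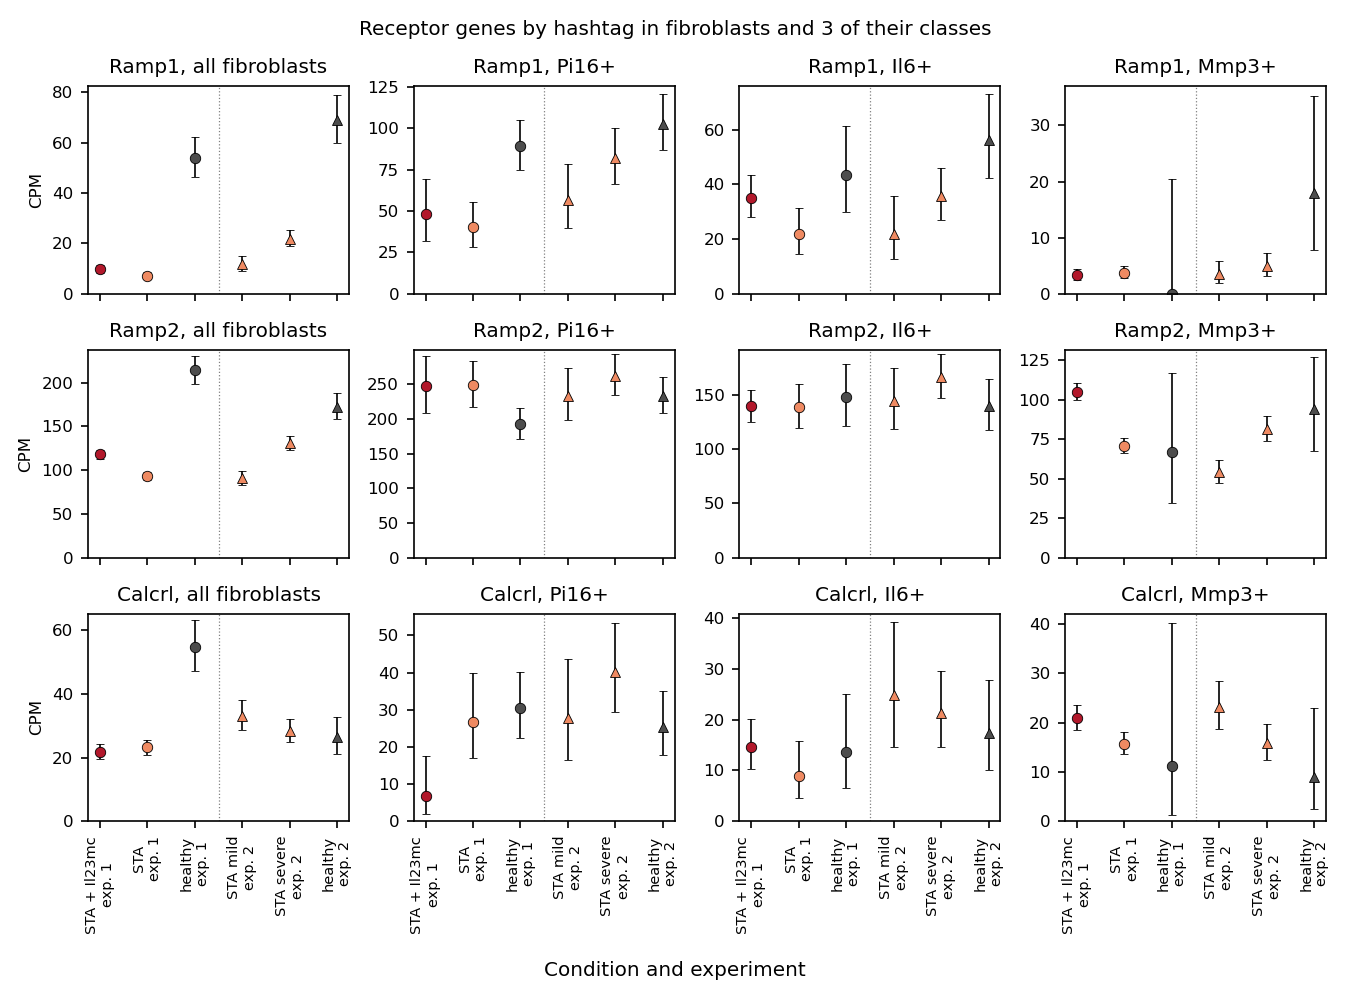
Ramp1, Ramp2 and Calcrl (rows, CPM on the y axis) in all fibroblasts and in the classes Pi16+, Il6+ and Mmp3+ (columns), with each point 1 pooled hashtag (circles experiment 1, triangles experiment 2) and bars the 95% exact Poisson interval of its count. Over all fibroblasts Ramp1 lies at 7.11 to 21.9 CPM in the arthritic pools and at 53.7 and 69.0 CPM in the healthy ones, while Ramp2 within Pi16+ and Il6+ cells overlaps between them.

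Other ligands of the family were sparse in ILC2. Adm, the adrenomedullin gene, was 14.6 to 22.3 CPM in ILC2 with STA + Il23mc, 9.35 to 19.3 CPM with STA and 4.44 to 13.8 CPM in healthy mice of experiment 1. In fibroblasts, which held Ramp2, it was 90.2 CPM with STA + Il23mc, 36.1 to 111 CPM with STA and 47.6 and 86.7 CPM in healthy pools, with an STA difference of -0.10 (adjusted p = 0.766). Calcr, the calcitonin receptor gene, had 2 UMIs in all ILC2 and 2 in all fibroblasts. Crcp, a receptor component gene, was 9.11 to 17.8 CPM in ILC2 of experiment 1 and 9.07 to 12.1 CPM in fibroblasts, with no call between conditions. Between the lineages it was called higher in ILC2, where 78.9% of all genes were called in one direction or the other.

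Genes that cut and finish the precursor were read next. CGRP is cut from its precursor by prohormone convertases and amidated by the enzyme that Pam encodes. Of the 11 listed genes, 4 could be tested in ILC2. None passed with STA against healthy. With STA + Il23mc, where 2.92% of all genes were called lower, the convertase gene Pcsk1 alone passed, at 11.1 to 18.7 CPM against 23.9 to 73.7 CPM in healthy mice (-1.60, SE 0.37, edgeR adjusted p = 0.0134). Furin, the most abundant of them in ILC2, was 703 to 947 CPM with STA + Il23mc and 894 to 1099.0 CPM in healthy mice (-0.21, adjusted p = 0.474). Ide, which encodes a peptidase, was 22.3 to 37.4 CPM with STA + Il23mc and 28.9 to 43.5 CPM in healthy mice (-0.31, adjusted p = 0.549). Pam was at 2.08 to 11.5 CPM in the ILC2 of experiment 1. In fibroblasts 3 of the 7 tested were lower with STA and none higher, where 9.88% of all genes were lower and 10.5% higher: Pcsk2 (-1.98, adjusted p = 0.0444), Ece1, which encodes a peptidase that can degrade CGRP (-1.03, adjusted p = 0.00494), and Pam (-0.75, adjusted p = 0.00696). The median of the list there was -0.75, against 0.02 over all genes tested.

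Of the cAMP response genes, 11 of 11 were tested in ILC2, and 1 rose with STA against healthy and none fell. Over all genes 1.59% were called higher and 1.12% lower there. The gene that rose was Areg, the gene of the repair factor amphiregulin, at 1524 to 1744 CPM with STA and 683 to 975 CPM in healthy mice (1.02, SE 0.20, edgeR adjusted p = 0.0118). The median of the list was -0.20, against -0.01 over all genes. With STA + Il23mc against healthy, where 4.73% of all genes were called higher, 1 also rose. This was Crem, which encodes a cAMP-responsive transcription factor and its inducible repressor, at 617 to 989.7 CPM against 362 to 590.5 CPM (0.75, edgeR adjusted p = 0.0344). In fibroblasts 2 of the 11 rose with STA, against 10.5% of all genes: Rgs2, a brake on G protein signals (1.16, adjusted p = 0.00840), and the nuclear receptor gene Nr4a2 (0.46, adjusted p = 0.0431), with a list median of -0.17.

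Of 26 genes of cAMP signalling, 16 were tested in ILC2 and none passed with STA. The 2 most abundant were Akap13 (-0.46, adjusted p = 0.0549) and Gnas, which encodes the Gs alpha subunit (-0.13, adjusted p = 0.701). With STA + Il23mc against healthy, where 2.92% of all genes were called lower, 2 fell: the phosphodiesterase gene Pde4a, at 2.08 to 8.91 CPM against 15.1 to 24.1 CPM (-1.96, edgeR adjusted p = 0.00971), and the kinase anchor gene Akap13, at 563 to 667 CPM against 904 to 1002 CPM (-0.54, adjusted p = 0.0124). In fibroblasts 4 of 24 rose and 5 fell with STA, where 10.5% of all genes rose and 9.88% fell. The largest changes were in Pde4d (1.58, adjusted p = 0.0163) and Pde3b (0.87, adjusted p = 0.0249), which break down cAMP, the cyclase gene Adcy5 (-0.98, adjusted p = 0.0415) and the CREB coactivator gene Crtc3 (-0.76, adjusted p = 0.00931).

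Of 7 prostaglandin and adenosine receptor genes, most of them for receptors that like CALCRL raise cAMP, 4 were tested in ILC2, and none passed in any of the 3 comparisons. The most abundant there were the adenosine receptor gene Adora2a, at 45.0 to 55.7 CPM with STA + Il23mc, 45.6 to 87.0 CPM with STA and 58.6 to 94.3 CPM in healthy mice, and the prostacyclin receptor gene Ptgir. In fibroblasts Ptgir was lower, at 9.40 to 17.0 CPM with STA against 27.8 and 30.3 CPM in healthy pools (-1.16, adjusted p = 0.00847), and the prostaglandin E2 receptor gene Ptger4 was higher, at 31.3 to 47.2 CPM against 23.1 and 19.0 CPM (0.83, adjusted p = 0.0322). Their STA effects differed between ILC2 and fibroblasts by 1.09 for Ptgir (adjusted p = 0.0222) and -1.33 for Ptger4 (adjusted p = 0.00873). Of 10 receptor genes for other neuropeptides and transmitters, 5 were tested in fibroblasts and none passed, among them the neuropeptide Y receptor gene Npy1r (-0.68, adjusted p = 0.220).

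Of the type 2 cytokines, 5 of 6 were tested in ILC2. With STA against healthy, where 1.59% of all genes were called higher, Areg and Il4 rose. Areg is the gene already counted among the cAMP response genes. Il4 was at 42.1 to 59.5 CPM against 11.3 to 29.3 CPM (1.41, SE 0.30, edgeR adjusted p = 0.0186). Il13, which drives alternative activation of macrophages and stromal responses, went the other way from Calca: it was 167 to 326 CPM with STA + Il23mc, 539.7 to 756 CPM with STA and 602 to 861 CPM in healthy mice. It fell by 1.36 with STA + Il23mc against healthy (SE 0.23, adjusted p = 0.00148) and by 1.32 against STA (SE 0.23, adjusted p = 0.00609), while the STA and healthy mice overlapped (-0.05, adjusted p = 0.956).

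Genes with levels most like a member's were ranked by Pearson's r of log2(CPM + 1) over sums per class and hashtag, as a description. The 66 sums of the ILC classes share mice, wells and depth, so no p is given. Calca was closest to Tent5a (r = 0.783), Itgav (0.755) and Hnrnpc (0.740), and Ramp3 was the fifth (0.734). Ramp1 in ILCs was closest to Tle5 (0.782), Cd47 (0.739) and Ltb4r1 (0.724). Over the 26 sums of the fibroblast wells, Ramp1 was closest to Timp3 (0.825), Aldh3a1 (0.821) and Irf1 (0.811), Ramp2 to Gprc5b (0.911), Ebf1 (0.883) and Sdk1 (0.875), and Calcrl to Sdk1 (0.844), Tln2 (0.841) and Plekha2 (0.837). Ramp3 had too few UMIs in those wells for such a ranking.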

How the data were processed

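Libraries were made with 10x Genomics 3' chemistry. The authors deposited matrices of raw UMI counts per gene, hashtag and cell, aligned to mm10 with Cell Ranger, whose version is 6.1.2 in the file headers and 6.0.6 in the submitters' processing notes. The authors also deposited a table of kept cells with counts of UMIs and genes, the mitochondrial fraction of each cell, its hashtag and its class. The tools behind that table are not given in the sources used here.

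Where the authors' table names a cell, its hashtag and class were taken from there. For other cells the hashtag came from HTODemux in Seurat 5.3.0 at a quantile of 0.99, and a cell needed 2000 UMIs (1500 in fibroblast wells), 700 genes and no more than 10% mitochondrial UMIs. Each took the class of its 15 closest annotated cells, measured on 30 principal components from the 2000 most variable genes, with scanpy 1.11.5 and scikit-learn 1.9.0. On annotated cells this approach gave the authors' hashtag to 70.3 to 98.6%, the ILC2 class to 69.4 to 99.6% of ILC2 and the ILC3 class to 19.4 to 94.4% of ILC3 in each well. Precursors were given their class in 30.9 to 68.5%. Cells that the authors had left out were again left out in 22.5% (healthy well), 82.4% (Il23mc well) and 14.9% (ILC well of experiment 2). Cells of the kind that the authors left out can thus remain among the STA ILCs, whose classes were passed on. The classes within ILC2 and within ILC3 were not scored apart. Barcodes with several hashtags (141 to 1156 in a well) were dropped as doublets in that step, and doublets of a single hashtag remain, since no other caller was run.

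UMIs were summed per hashtag and class (795046 to 4638015 UMIs per ILC2 hashtag, 3103104 to 17064647 per fibroblast hashtag) and given as CPM, counts per 1000000 UMIs. The sums were tested with edgeR 4.0.16 in R 4.3.3 (quasi-likelihood test, TMM factors, filterByExpr, Benjamini-Hochberg over all genes tested, threshold 0.05), with DESeq2 1.42.0, other size factors, no filter, other cell selections and each hashtag left out as alternatives. Tested on simulated data with the depths of ILC2 in STA + Il23mc against healthy mice, 55% of genes changed 2-fold and 96% of those changed 4-fold were recovered, with 10 false calls among 7226 genes; for fibroblasts these were 64%, 96% and 3 of 12200. Outside the 9 hashed mice the labels do not say how many animals a hashtag holds, so p-values for fibroblasts measure the spread between pools. Replicate numbers do not pair the mice across conditions. The fits within single ILC2 or fibroblast classes and the tests of whether an effect differed between cell types were chosen after seeing the data.

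The members and the gene lists were chosen with earlier results of these data known. Besides the members, the text names from each gene list up to 4 genes past the threshold per comparison, largest change first, or the 2 with the highest mean CPM where none passed, and the 3 genes most like each member. Pam, Furin and Ide beside Pcsk1, and Calcr, Adm and Crcp, were named in addition, after their values were seen. Some genes of these lists are not reported here.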

Additional observations from a re-analysis of the deposited data

Results flagged for a closer look

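Calcrl in the ILC3 of healthy mouse 2 of experiment 1 was 79.4 CPM, far above the other 3 healthy hashtags, at 45.7, 49.0 and 49.7 CPM. It was the only such sample in 16 groups of 4 or 5 hashtags looked at, and chance gives about 1 in 20.

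The change with STA + Il23mc against healthy differed between ILC2 and ILC3 by 2.74 log2 units for Calca, 1.76 for Calcrl and 1.70 for Ramp3. Without cells holding Cd3d or Cd3e these were 0.70, 0.45 and 0.26, and none passed (edgeR adjusted p = 0.585, 0.854 and 0.836). The STA effect on Ramp1 differed between ILC2 and fibroblasts by 2.73, and fibroblast class makeup moved with condition.

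Cells of the fibroblast wells that the authors left out of their table also held receptor genes. Those with at least 3 UMIs of endothelial markers numbered 423 in experiment 1 and 223 in experiment 2. Ramp2 was 772 CPM in those of experiment 1 and 484 CPM in those of experiment 2. Calcrl was 176 and 142 CPM in them, in the same order of experiments, Ramp1 5.73 and 78.4 CPM, and Ramp3 3.75 and 3.15 CPM. Left-out cells with no endothelial UMI held Ramp3 at 2.09 CPM in experiment 1 (95% exact Poisson interval 1.59 to 2.71, which overlaps that of the cells with endothelial markers) and 0.896 CPM in experiment 2. In the authors' fibroblast classes 3 Ramp3 UMIs were found in 3325 cells, and Ramp1 was at 12.6 CPM in experiment 1 and 26.8 CPM in experiment 2.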

How the results depend on the processing

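The rise of Calca in ILC2 with STA + Il23mc against healthy passed under every alternative run, from 2.00 (all lymphoid cells) to 3.48 (ILC2-1), and 2.32 to 3.00 as each mouse was left out. With STA against healthy it was 1.51 over all lymphoid cells and 2.15 in ILC2-1, neither passing, and 1.49 to 2.16 with each mouse left out. Between STA + Il23mc and STA it did not pass as summed (0.84) but passed with no filter on low counts (0.84), 1 rule for all wells (0.95), without Cd3 cells (1.01) and in ILC2-3 (1.06), with 0.60 to 1.19 over left-out mice, the last passing (without mouse 1 of the Il23mc group). The cause was not tested. With the mouse number as a replicate block, which does not pair the mice (same-numbered mice correlated at -0.128 to 0.134), the 3 values were 2.54, 1.80 and 0.75 (edgeR adjusted p = 5.82e-05, 0.00245 and 0.258), and no call of Calca changed. In fibroblasts the experiment took the place of that block.

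In fibroblasts Calcrl was -0.43 with no filter, 0.18 in Pi16+ and 1.08 in Mmp3+ cells, and -1.23 to 0.21 over left-out pools. Ramp1 was -0.77 in Pi16+, -1.02 in Il6+ and -1.36 in Mmp3+ cells. Ramp2 was -0.90 without the experiment term, 0.20 in Pi16+, -0.037 in Il6+ and -0.14 in Mmp3+ cells, and -1.20 to -0.63 over left-out pools. ILC2 minus ILC3 was 0.35 for Calca in healthy mice and 1.39 to 2.35 over left-out mice; for Calcrl 0.46 without Cd3 cells, 0.42 in healthy mice and 0.77 to 1.31; for Ramp3 0.96 without the mouse block, 0.28 without Cd3 cells, 0.20 in healthy mice and 0.70 to 1.26. The difference of the Il23mc effect between ILC2 and ILC3 without Cd3 cells was 0.70 for Calca, 0.45 for Calcrl (1.57 to 1.99 over left-out mice) and 0.26 for Ramp3.

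Small differences turned sign. Ramp1 between ILC2 and ILC3 was 0.41 without Cd3 cells, 0.36 in healthy mice and -0.30 to 0.15 over left-out mice, and its difference of effects 0.21 without Cd3 cells. Between STA + Il23mc and STA, Calcrl was 0.053 without Cd3 cells, 0.19 in ILC2-2 and -0.41 to 0.11 over left-out mice; Ramp1 was 0.51 over all lymphoid cells, 0.61 in ILC2-1 and -0.59 to 0.25; Ramp3 was 0.13 under 1 rule, 0.20 without Cd3 cells, 0.68, 0.32 and 0.14 in ILC2-1, ILC2-2 and ILC2-3, and -0.28 to 0.19. Ramp1 with STA + Il23mc against healthy was -0.27 under 1 rule, -0.27 without Cd3 cells, -0.019 in ILC2-2, -0.68 in ILC2-3 and -0.18 to 0.66, and Ramp3 with STA against healthy -0.073 in ILC2-1.

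Genes called moved more. For STA against healthy in ILC2 they were 196, against 340 with these groups fitted alone, 27 over all lymphoid cells, 378 with both experiments, 6 in ILC2-1, 100 in ILC2-3, 486 with no filter, 321 without Cd3 cells and 77 to 151 over left-out mice. For STA + Il23mc against healthy they were 553, against 131 in ILC2-1, 281 in ILC2-3, 860 with no filter and 325 to 602. For STA + Il23mc against STA they were 116, against 182 under 1 rule, 12 in ILC2-1, 70 in ILC2-3, 340 with no filter and 60 to 136. In fibroblasts they were 2481, against 583 without the experiment term, 199 in Il6+, 512 in Mmp3+, 68 in Pi16+ cells and 841 to 2113 over left-out pools (841 without the healthy and 911 without the STA pool of experiment 1). The difference between ILC2 and fibroblasts gave 462, against 718 with DESeq2 and 118 to 444, and that between ILC2 and ILC3 gave 329, against 210 with DESeq2, 29 without Cd3 cells and 174 to 519. Thinning moved 49 of 65 shares of cells with a UMI, and averaging over hashtags moved 2 of 65 levels.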
